A study of Mus musculus with 6 samples.

Results

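Accessible chromatin was compared at the loci of macrophage colony-stimulating factor (MCSF, encoded by Csf1) and of its receptor (encoded by Csf1r), in mouse bone marrow-derived macrophages (BMDMs) treated with MCSF or other agents. The members are the ATAC-seq sites that lie inside either of 2 windows of 160 kb in the mm9 build, chr18:61200000-61360000 for Csf1r and chr3:107470000-107630000 for Csf1. The windows hold 81 of the 578591 sites in the deposited table, 41 at Csf1r and 40 at Csf1, and the sites are numbered by position along each window. The rule uses position alone and no measured value, and both windows are kept apart throughout.

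MCSF binds CSF1R, a receptor tyrosine kinase on macrophages and their precursors, and this signal maintains macrophage survival, proliferation and differentiation. Csf1r is a defining gene of the macrophage lineage whose promoter and intronic enhancer are bound by PU.1 and other myeloid factors, whereas Csf1 is transcribed in many stromal cells and also in macrophages. ATAC-seq uses a transposase that inserts adapters into open DNA, so reads accumulate at accessible promoters and enhancers, and a site does not by itself name the gene it acts on.

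All 6 libraries came from wild-type C57BL/6 BMDMs (C57BL/6J in the growth protocol) grown in medium with 30% L929-cell conditioned medium, a common source of MCSF, so the control cells had also met this cytokine during culture. The groups were Untreated, IL-4 (20 ng/ml for 24 hours), DMSO (the solvent of latrunculin A), DMSO + IL-4, LatA + IL-4 (latrunculin A at 1 μM, an inhibitor of actin polymerization, with the same IL-4) and MCSF + IL-4 (recombinant MCSF at 100 ng/ml with the same IL-4). With 1 library per group nothing was replicated, no p-values are given, and every ratio compares a pair of libraries rather than a pair of conditions. Reads in sites ranged from 12387332 to 19889902 per library, of which 1899 to 4152 fell in both windows together. The site table carries no gene names and no mm9 annotation was used here, so a site could not be assigned to a gene or to an exon, intron or promoter. In RefSeq on GRCm38.p6 the genes next to Csf1r are Pdgfrb and Hmgxb3, and those next to Csf1 are Ahcyl1 and Eps8l3. Some sites may belong to such neighbours. Of the macrophage markers only Csf1r was looked up, and its window held peaks in each of the 6 libraries.

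The promoter of Csf1 is shown because it is where transcription of the MCSF gene starts. The 250 bases before the RefSeq start lie at chr3:107760470-107760719 on the minus strand of GRCm38.p6, a build other than that of the sites, and which mm9 site holds them was not determined. Capitals mark the GC box GGGCGG, the motif of Sp/KLF factors, which was found 51 and 41 bases before the start.
Csf1 promoter: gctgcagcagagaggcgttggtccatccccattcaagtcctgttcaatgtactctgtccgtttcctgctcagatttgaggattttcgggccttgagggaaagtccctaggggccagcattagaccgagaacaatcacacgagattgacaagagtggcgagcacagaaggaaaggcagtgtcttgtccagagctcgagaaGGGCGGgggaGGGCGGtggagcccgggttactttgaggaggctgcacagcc
The stretch is 56.4% G or C, against a median of 52.4% over all 32851 RefSeq promoters, and holds 10 CG pairs, against a median of 6. A GC box occurs in 32.7% of promoters of this length. The letters GAGGAAGT (PU.1, in 2.44% of promoters), TGANTCA (AP-1, 6.75%), TTGCNNCAA (C/EBP, 1.74%), CCAAT (33.8%) and TATAAA (12.4%) were searched on both strands and are not in this window, nor is the STAT6 motif (5.85%), STAT6 being the factor activated by IL-4.

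Both windows held the most reads with latrunculin A or MCSF added to IL-4, and the fewest in untreated cells. Values are normalized reads, that is, reads divided by the authors' effective library size and brought to a common scale, and the bracketed 95% intervals cover counting error only. Summed over the 41 sites of the Csf1r window, normalized reads numbered 1091 (1036 to 1148) in Untreated and 1607 (1533 to 1683) in DMSO, against 1413 (1341 to 1488) in IL-4 and 1483 (1400 to 1569) in DMSO + IL-4. They numbered 2044 (1949 to 2142) in MCSF + IL-4 and 2824 (2718 to 2933) in LatA + IL-4. In this order of levels, the interval of DMSO + IL-4 overlapped those of IL-4 and DMSO, its neighbours, and no other neighbouring intervals overlapped.

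At the 40 sites of the Csf1 window the sums were 579 (539 to 621) in Untreated and 739 (690 to 792) in DMSO, against 793 (739 to 850) in IL-4 and 868 (805 to 934) in DMSO + IL-4. They were 1409 (1331 to 1491) in MCSF + IL-4 and 1554 (1476 to 1636) in LatA + IL-4. Here the intervals of LatA + IL-4 and MCSF + IL-4 overlapped and both stood apart from the other 4 libraries. Per kilobase of site the receptor locus was the more accessible in every library, at 64.4 to 167 normalized reads against 41.1 to 110 at the ligand locus.

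**Figure D1:**
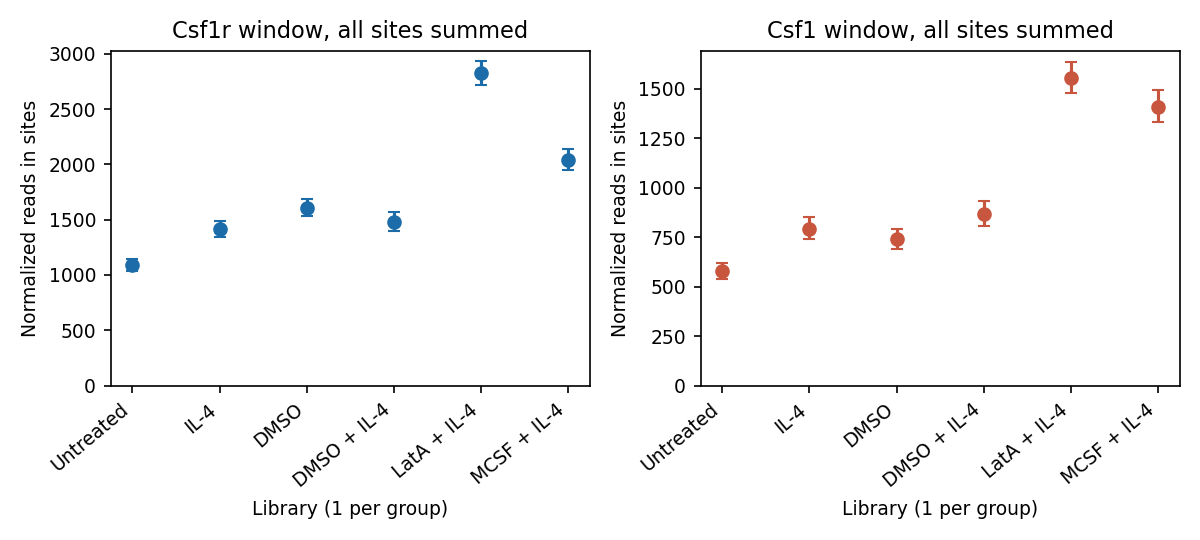
Normalized reads summed over all sites of the Csf1r window (41 sites) and of the Csf1 window (40 sites) in each of the 6 libraries, with 95% intervals for counting error. The Csf1r sum runs from 1091 in Untreated to 2824 in LatA + IL-4 and the Csf1 sum from 579 to 1554 in the same libraries.

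The 2 loci differed in how the reads were spread. The Csf1r window is led by site 20 (chr18:61267057-61268763, 1707 bp), with a mean of 378 normalized reads over the 6 libraries, more than any other member. Per kilobase it had 221, and only the narrower site 22 of the same window was denser (249), as seen after the values were known. Site 20 had 261 normalized reads in Untreated and 388 in DMSO, 328 in IL-4 and 337 in DMSO + IL-4, and 425 in MCSF + IL-4 and 528 in LatA + IL-4. A peak was called there in all 6 libraries, with its highest summits within 76 bp of each other, and the site held 18.7% to 24.2% of the window's reads. Its own share was lowest with latrunculin A and next lowest with MCSF (20.8%), the libraries in which the window as a whole was highest.

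The next strongest sites of the Csf1r window were sites 36 (chr18:61335906-61337311), 13 (chr18:61250195-61251406), 9 (chr18:61233831-61234714) and 31 (chr18:61293384-61294157), and the 5 strongest held 47.0% of reads. The Csf1 window is led by site 11 (chr3:107498890-107499796), with a mean of 132 normalized reads and summits within 20 bp over the 6 libraries. It is followed by sites 22 (chr3:107562714-107563706), 28 (chr3:107580765-107581322), 27 (chr3:107575722-107576211) and 12 (chr3:107508854-107509522), and the 5 strongest held 41.5% of reads. Most sites were weak. Median mean reads per site were 18.0 at Csf1r (range 0.978 to 378, median width 313 bp) and 12.5 at Csf1 (range 2.87 to 132, median width 277 bp).

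Sites were compared one by one when their mean over the 6 libraries was at least 20 normalized reads, which 132057 of all sites reached (22.8%). At Csf1r 18 of 41 sites passed, holding 85.8% of the window's reads, and at Csf1 15 of 40 passed, holding 76.8%. Just inside this limit were site 30 of the Csf1r window (25.9) and site 34 of the Csf1 window (21.2), and just outside were site 17 (18.5) and site 37 (19.1). A site can pass through the libraries in which it is high. Sites 16, 34, 39 and 40 of the Csf1 window passed only with the MCSF and latrunculin A libraries counted, since their mean over the other 4 libraries was 15.5, 10.7, 19.0 and 17.7, and no Csf1r site did. The counts below are therefore read against the share of all compared sites past the same fold of 1.5, computed with 1 read added.

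**Figure D2:**
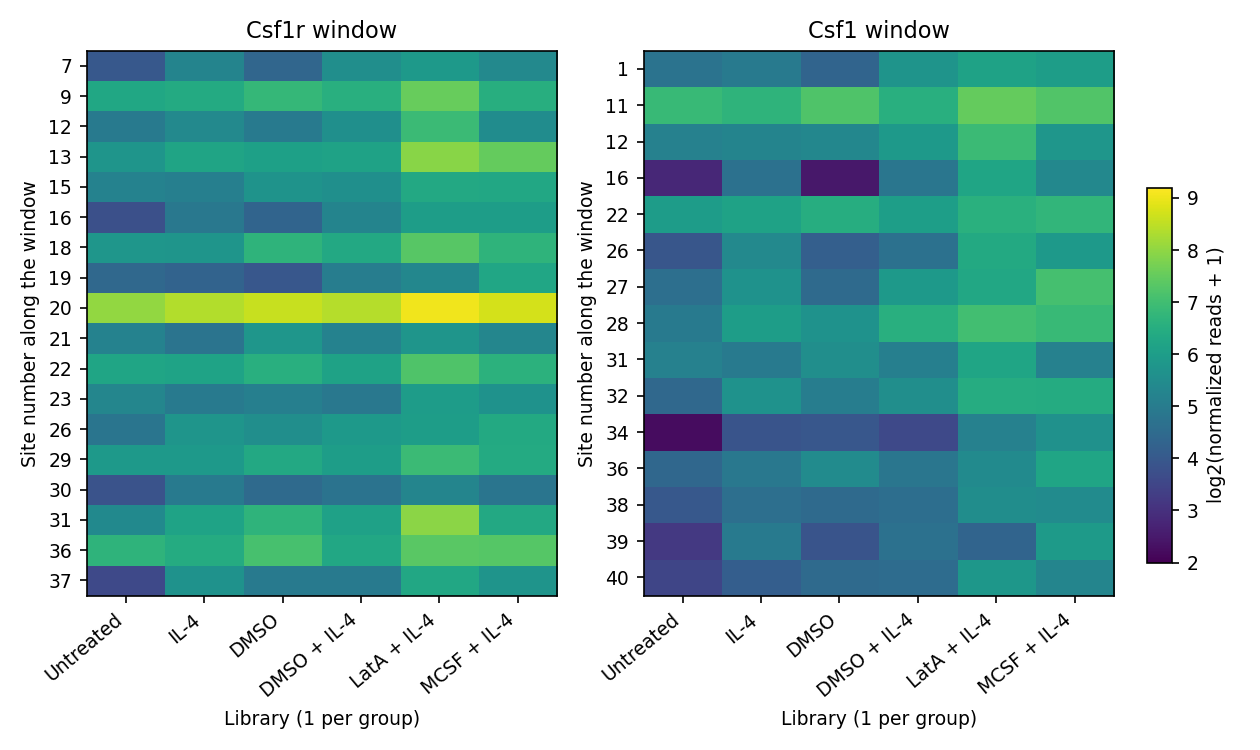
Heat map of log2(normalized reads + 1) at the 18 compared sites of the Csf1r window and the 15 of the Csf1 window, in rows ordered along each window, across the 6 libraries in columns. Site 20 of the Csf1r window is the brightest row throughout (261 to 528 normalized reads), and at Csf1 site 16 is darkest in the 2 libraries without IL-4 and site 34 in Untreated.

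Accessibility was higher in the MCSF + IL-4 library than in the IL-4 library in both windows, and more so in the Csf1 window than in the Csf1r window. The Csf1r window was 1.45-fold higher in MCSF + IL-4 than in IL-4 (95% counting interval 1.35 to 1.55) and the Csf1 window 1.78-fold (1.62 to 1.94), intervals that do not overlap. At Csf1r 8 of 18 sites were at least 1.5-fold higher and none lower, and at Csf1 11 of 15 were higher and none lower. Over all compared sites 29.2% were higher and 14.9% lower. Of those past the fold in either direction 66.1% were higher, and 45.2% to 59.4% were on the other scales tried between libraries. The median log2 ratio was 0.54 at Csf1r (range −0.12 to 1.95) and 0.85 at Csf1 (0.20 to 1.77), against 0.16 over all compared sites. When the filter of 20 reads was set on the 4 libraries without MCSF or latrunculin A, an alternative added after seeing the data, 8 of 18 sites at Csf1r and 7 of 11 at Csf1 were higher, against 23.6%.

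Strong sites had larger ratios than weak ones across the whole table in this comparison. Over the 13052 sites with at least 100 normalized reads the median log2 ratio was 0.59. The 0.54 at Csf1r covers all 18 compared sites, of which 5 reach 100 reads. These were sites 20, 36, 13, 9 and 31, with log2 ratios of 0.37, 0.87, 1.30, 0.11 and 0.17. Among sites with at least 50 reads, 5 of 11 at Csf1r and 4 of 6 at Csf1 were at least 1.5-fold higher, against 46.0% of all such sites. With the median of sites of like read count subtracted, the summed log2 ratio fell from 0.53 to 0.14 at Csf1r and from 0.83 to 0.57 at Csf1, and 5 of 18 and 8 of 15 sites were past the fold, against 19.6% of all compared sites under the same correction. The 8 at Csf1 include sites 16, 34, 39 and 40, which passed the filter only through the treated libraries. With the filter set on the 4 libraries without MCSF or latrunculin A and the trend removed, 5 of 18 and 4 of 11 were past the fold, against 16.6%. With both at least 50 reads and the trend removed, 2 of 11 and 1 of 6 were, against 10.9%.

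Of the 8 sites of the Csf1r window higher with MCSF, 5 lay next to each other on one side of site 20 and 3 lay on the other side. Sites 13, 15, 16, 18 and 19 are the 5 compared sites between −17.1 and −1.2 kb of site 20, and all 5 were at least 1.5-fold higher with MCSF, at log2 ratios of 0.91 to 1.95. The next compared sites outward, 12 and 9, had 0.11 each, and site 20 itself had 0.37. On the other side, site 23 at 14.5 kb had 0.71, site 26 at 19.5 kb had 0.62 and site 36 at 68.7 kb had 0.87, among sites that were not past the fold. With the trend with read count removed, sites 13, 15, 16 and 19 were still past the fold (0.67 to 1.92) and site 18 was not (0.34). This grouping was noticed after the values were seen.

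Site 19 (chr18:61266475-61266985) had the largest MCSF ratio among the compared sites of the window. It held 20.7 normalized reads in Untreated and 14.4 in DMSO, 18.6 in IL-4 and 32.2 in DMSO + IL-4, and 75.0 in MCSF + IL-4 and 39.0 in LatA + IL-4, a 4.02-fold difference from IL-4 (2.38 to 7.11, on 64 and 19 reads). MCSF + IL-4 was the highest library, and a peak was called there only in MCSF + IL-4 (3.05-fold over background) and DMSO + IL-4 (2.24-fold).

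Site 13 held 52.5 normalized reads in Untreated and 66.6 in DMSO, 72.6 in IL-4 and 69.3 in DMSO + IL-4, and 180 in MCSF + IL-4 and 240 in LatA + IL-4. The 4 libraries without MCSF or latrunculin A lay close together, and both treatments stood far above them, 2.48-fold for MCSF over IL-4 (1.87 to 3.32) and 3.47-fold for latrunculin A over DMSO + IL-4 (2.58 to 4.73). Its peak summits in MCSF + IL-4 and LatA + IL-4 were at positions 61250503 and 61250532, and a peak was called there in all 6 libraries.

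Site 15 (chr18:61258657-61259007) held 78.5 normalized reads in MCSF + IL-4 against 33.4 in IL-4, a 2.35-fold difference (1.53 to 3.67). It had 35.5 in Untreated, 51.3 in DMSO, 47.0 in DMSO + IL-4 and, with latrunculin A, 80.1. Site 36, the second strongest, was 1.84-fold higher with MCSF (1.39 to 2.44), with 101 in Untreated and 137 in DMSO, 85.4 in IL-4 and 79.2 in DMSO + IL-4, and 157 in MCSF + IL-4 and 163 in LatA + IL-4. At site 36 the DMSO library lay closer to both treated libraries than to the remaining controls. With the trend removed its log2 ratio was 0.24 in place of 0.87, no longer past the fold. Sites 9 and 31, also among the 5 strongest, did not differ with MCSF beyond counting error, at 1.08-fold (0.784 to 1.49) and 1.13-fold (0.800 to 1.59).

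Among the compared sites of the Csf1 window the largest MCSF ratio was at site 34 (chr3:107599519-107600011), with 3.70 normalized reads in Untreated and 14.4 in DMSO, 13.7 in IL-4 and 11.1 in DMSO + IL-4, and 49.2 in MCSF + IL-4 and 34.8 in LatA + IL-4. That is 3.58-fold over IL-4 (1.92 to 7.10, on 42 and 14 reads), and a peak was called there only with MCSF or latrunculin A. The site was compared only because it is high in those libraries, so its rank is tied to the filter. Site 27 held 23.7 in Untreated and 21.6 in DMSO, 50.1 in IL-4 and 58.2 in DMSO + IL-4, and 135 in MCSF + IL-4 and 78.0 in LatA + IL-4, 2.69-fold over IL-4 (1.92 to 3.82). Site 27 was thus lowest in the libraries without IL-4, higher in those with it and highest with MCSF.

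Site 36 of the Csf1 window (chr3:107618852-107619320) held 20.0 in Untreated and 43.2 in DMSO, 28.5 in IL-4 and 27.2 in DMSO + IL-4, and 73.8 in MCSF + IL-4 and 42.2 in LatA + IL-4, 2.59-fold over IL-4 (1.65 to 4.18). MCSF + IL-4 was again the highest library, and the DMSO library reached the level of LatA + IL-4. The strongest site, 11, differed less, at 1.49-fold (1.14 to 1.95), while the remaining sites of the window summed to 1.82-fold (1.65 to 2.00). At Csf1r the strongest site was likewise 1.30-fold higher (1.11 to 1.51) and the rest 1.49-fold (1.38 to 1.62), with overlapping intervals at both loci.

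**Figure D3:**
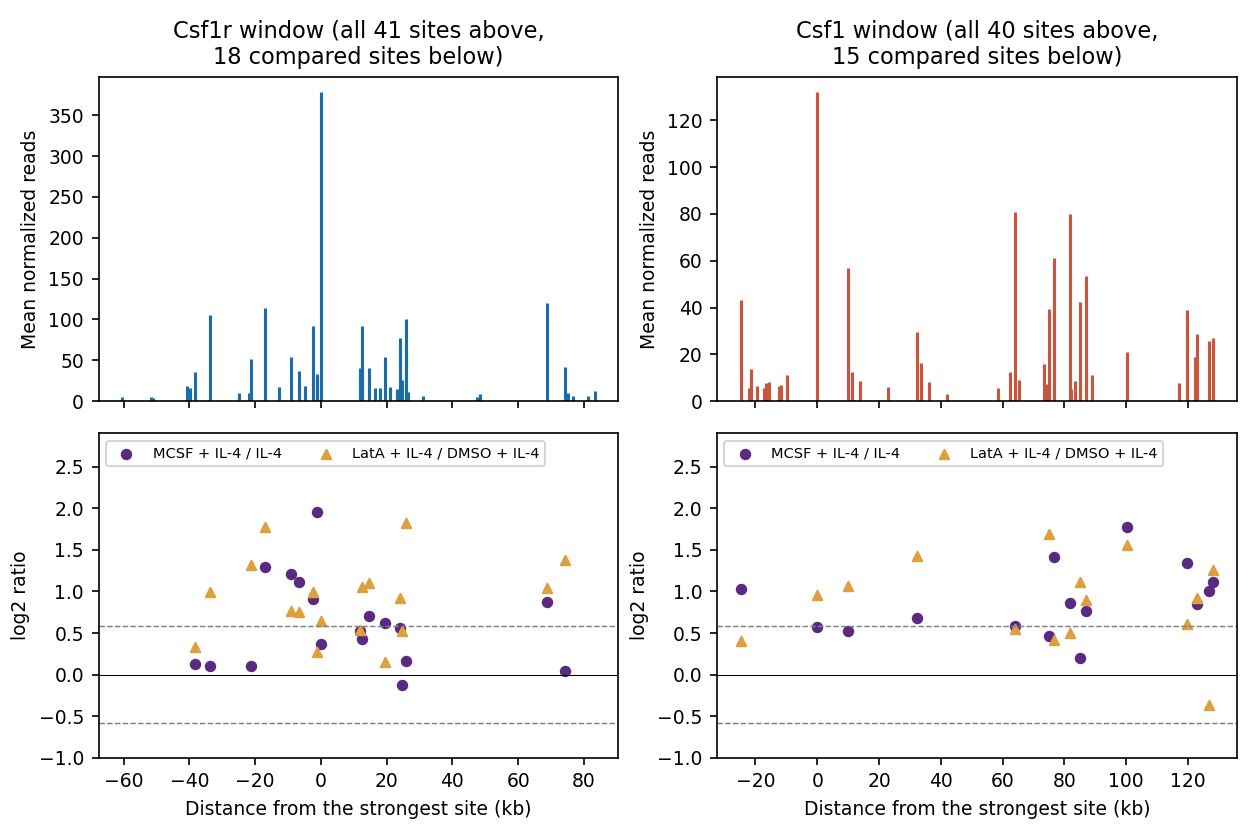
Mean normalized reads of every site (upper panels) and log2 ratios of the compared sites with MCSF (circles) and with latrunculin A (triangles) (lower panels), against the distance in kb from the strongest site of each window, with dashed lines at 1.5-fold. In the Csf1r window 5 circles above the upper dashed line lie between −17.1 and −1.2 kb and the other 3 between 14.5 and 68.7 kb, and triangles above that line lie on both sides.

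Latrunculin A, compared with its own vehicle control, had the larger ratio of both treatments at the receptor locus. The Csf1r window was 1.90-fold higher in LatA + IL-4 than in DMSO + IL-4 (1.78 to 2.04) and the Csf1 window 1.79-fold (1.64 to 1.96). At Csf1r 13 of 18 sites were at least 1.5-fold higher and at Csf1 10 of 15, with none lower, against 30.1% higher and 15.7% lower over all compared sites. Higher sites made up 65.8% of those past the fold, and 45.3% to 62.5% on the other scales. Among sites with at least 50 reads the counts were 10 of 11 and 3 of 6, against 44.7%. With the median of sites of like read count subtracted, the summed log2 ratio was 0.54 in place of 0.93 at Csf1r and 0.56 in place of 0.84 at Csf1, and 6 of 18 and 7 of 15 sites were past the fold, against 19.2%. With the filter set on the 4 libraries without MCSF or latrunculin A, 13 of 18 and 7 of 11 were higher, against 24.8%, and with the trend removed as well 7 of 18 and 4 of 11, against 17.1%. With both at least 50 reads and the trend removed, 3 of 11 and 1 of 6 were higher, against 8.93%.

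Site 31 carried the largest latrunculin A ratio among the compared sites at Csf1r. It held 41.4 normalized reads in Untreated and 102 in DMSO, 71.7 in IL-4 and 68.1 in DMSO + IL-4, and 80.8 in MCSF + IL-4 and 244 in LatA + IL-4, a ratio of 3.58 (2.66 to 4.89) on 231 and 55 reads. LatA + IL-4 was the highest library by a wide margin, and MCSF + IL-4 lay between the IL-4 and DMSO libraries. LatA + IL-4 was likewise the highest library at site 9, with 182 in LatA + IL-4 against 91.6 in DMSO + IL-4 (1.99-fold, 1.51 to 2.65), 90.2 in MCSF + IL-4, 83.4 in IL-4, 110 in DMSO and 76.9 in Untreated.

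In the Csf1 window site 12 held 120 normalized reads in LatA + IL-4, against 34.8 in Untreated, 39.6 in DMSO, 37.3 in IL-4, 56.9 in DMSO + IL-4 and, with MCSF, 53.9. Here too LatA + IL-4 stood alone. The largest latrunculin A ratio among the compared sites of the window was at site 26 (log2 1.69, 3.32-fold, 2.01 to 5.74), which was picked out after its value was seen. The strongest site, 11, was 1.95-fold higher (1.48 to 2.60), with 181 in LatA + IL-4, 152 in MCSF + IL-4, 149 in DMSO, 115 in Untreated, 102 in IL-4 and 92.8 in DMSO + IL-4.

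The MCSF and latrunculin A comparisons share no library, so their values can be set side by side. At Csf1r 6 of 18 sites were at least 1.5-fold higher in both, and at Csf1 6 of 15, against 15.4% of all compared sites. Of those 6 at Csf1, sites 16, 34 and 40 passed the filter only through the treated libraries. With the filter set on the other 4 libraries the counts were 6 of 18 and 3 of 11, against 12.1%. Among sites with at least 50 reads these were 4 of 11 and 1 of 6, against 27.5%. No compared member was lower in both (4.36% of all compared sites), higher with MCSF and lower with latrunculin A (1.52%), or the reverse (1.88%). Sites 13, 18 and 36 led this group at Csf1r and sites 34, 40 and 38 at Csf1. With the trend removed, sites 18 and 36 were past the fold in neither comparison (0.34 and 0.42, and 0.24 and 0.44), while site 13 was in both (0.67 and 1.18).

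Site 18 (chr18:61265145-61265630) held 54.0 normalized reads in Untreated and 102 in DMSO, 53.0 in IL-4 and 80.5 in DMSO + IL-4, and 101 in MCSF + IL-4 and 160 in LatA + IL-4, so that MCSF + IL-4 and DMSO were level. Site 40 of the Csf1 window (chr3:107627315-107627700) held 10.4 in Untreated and 21.6 in DMSO, 16.7 in IL-4 and 22.3 in DMSO + IL-4, and 37.5 in MCSF + IL-4 and 54.8 in LatA + IL-4. Site 38 (chr3:107622009-107622477) held 14.8, 21.6, 23.6, 23.5, 43.3 and 45.3 in the same order. At both of these sites the treated libraries stood above all 4 others. LatA + IL-4 was the highest library at 15 of 18 Csf1r sites and 10 of 15 Csf1 sites (31.8% of all compared sites), and MCSF + IL-4 at 2 and 5 (21.0%). Of the Csf1 sites among these, 4 passed the filter only through these libraries. With the filter set on the other 4 libraries, LatA + IL-4 was highest at 15 of 18 and 8 of 11 sites (27.4%) and MCSF + IL-4 at 2 of 18 and 3 of 11 (16.8%). Untreated was the lowest library at 10 sites of each window (29.9%). At Csf1 these include sites 34, 39 and 40, which passed the filter only through the MCSF and latrunculin A libraries. This count was not repeated with the filter on the other 4 libraries or on another scale.

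**Figure D4:**
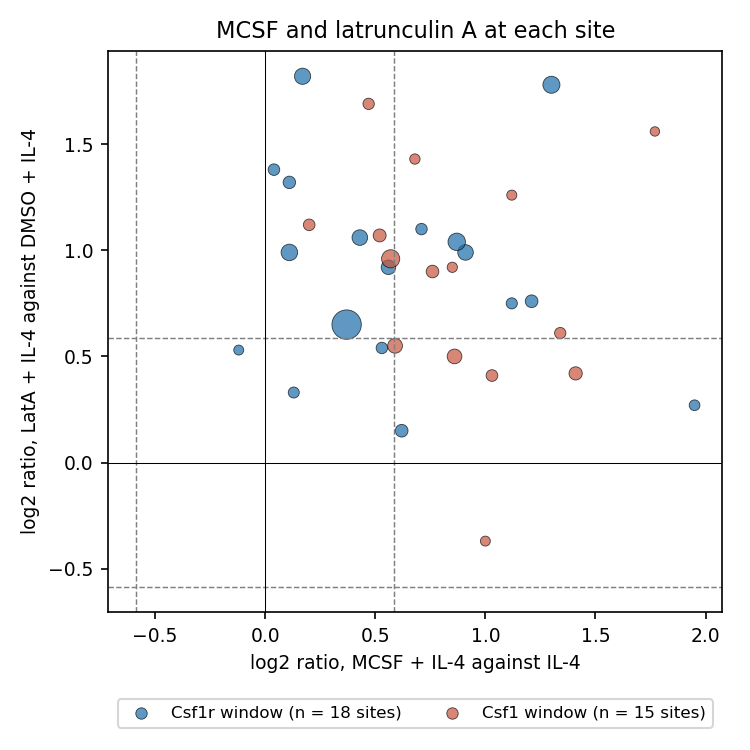
Log2 ratio of LatA + IL-4 to DMSO + IL-4 against that of MCSF + IL-4 to IL-4 at the 18 Csf1r and 15 Csf1 sites compared, with point area set by mean normalized reads and dashed lines at 1.5-fold. Most points lie in the upper right, with 6 of each window past the fold in both (3 of the 6 Csf1 points, sites 16, 34 and 40, passed the filter only through the treated libraries), and none lies past it in opposite directions.

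IL-4 alone went with higher accessibility at Csf1, and at Csf1r this was seen without vehicle only. Without vehicle, IL-4 against Untreated was 1.30-fold higher at Csf1r (1.20 to 1.39) and 1.37-fold at Csf1 (1.24 to 1.51). In DMSO, DMSO + IL-4 against DMSO was 0.923-fold at Csf1r (0.857 to 0.994) and 1.17-fold at Csf1 (1.06 to 1.30). Scaled by total reads in sites the Csf1r value was 0.965 (0.897 to 1.04), which spans 1. These comparisons share no library, and the difference between them was not tested. At Csf1r 6 of 18 sites were at least 1.5-fold higher without vehicle and none lower, and at Csf1 9 of 15 and none, against 20.8% higher and 8.88% lower over all compared sites (70.1% of those past the fold were higher, and 55.0% to 66.4% on the other scales). In DMSO 4 of 18 were higher and 1 lower at Csf1r, and 5 of 15 higher and 2 lower at Csf1, against 16.6% and 12.8%. With at least 50 reads the sites higher without vehicle were 2 of 11 and 3 of 6, against 21.9%, and in DMSO 1 of 11 and 2 of 6, against 13.6%. Sites 16, 34, 39 and 40 of the Csf1 window passed the filter only through the MCSF and latrunculin A libraries, which also received IL-4. With the filter set on the other 4 libraries, 6 of 18 and 5 of 11 sites were higher without vehicle, against 18.1%, and 4 of 18 and 3 of 11 in DMSO, against 15.1%.

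Sites past 1.5-fold upwards in both IL-4 comparisons numbered 2 at Csf1r and 4 at Csf1, against 8.73% of all compared sites, and none was lower in both (2.38%). With at least 50 reads these were 0 of 11 and 2 of 6, against 10.3%, and with the filter set on the 4 libraries without MCSF or latrunculin A they were 2 of 18 and 2 of 11, against 6.86%. At Csf1r they were sites 7 and 16, neither of them among the 5 strongest. Site 7 (chr18:61229449-61229797) held 14.8 normalized reads in Untreated and 19.8 in DMSO, 37.3 in IL-4 and 45.8 in DMSO + IL-4, and 41.0 in MCSF + IL-4 and 58.0 in LatA + IL-4, 2.52-fold (1.43 to 4.57) and 2.31-fold (1.33 to 4.11) in the 2 comparisons. All 4 libraries with IL-4 stood above both without it. Site 16 (chr18:61261110-61261390) held 12.6 in Untreated, 18.9 in DMSO, 28.5 in IL-4, 37.1 in DMSO + IL-4 and 63.3 in each of LatA + IL-4 and MCSF + IL-4, and there the libraries with IL-4 were again the higher ones.

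At Csf1 the largest ratios in both were at site 16 (chr3:107531364-107531877), which with site 39 passed the filter only through the treated libraries. It held 5.92 normalized reads in Untreated and 4.50 in DMSO, 24.5 in IL-4 and 27.2 in DMSO + IL-4, and 39.8 in MCSF + IL-4 and 74.9 in LatA + IL-4, 4.15-fold (1.81 to 10.6) without vehicle and 6.05-fold (2.23 to 20.4) in DMSO, on 5 to 25 reads in these 4 libraries. The authors called a peak there in each of the 4 libraries with IL-4 and in neither of the others. Site 28 held 30.3 in Untreated and 49.5 in DMSO, 62.8 in IL-4 and 91.6 in DMSO + IL-4, and 115 in MCSF + IL-4 and 130 in LatA + IL-4, 2.07-fold (1.38 to 3.14) and 1.85-fold (1.29 to 2.67). Together with site 27 and site 39 (log2 1.74 and 0.83) these are the 4 sites higher in both. At sites 16, 27 and 28 every library with IL-4 was above every library without it.

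The strongest site of the Csf1 window did not share this. Site 11 was 0.884-fold in IL-4 against Untreated (0.683 to 1.14) and 0.625-fold in DMSO + IL-4 against DMSO (0.469 to 0.826), while the rest of the window was 1.49-fold (1.34 to 1.66) and 1.31-fold (1.17 to 1.47) higher. Its share of the window's reads was 19.9% in Untreated and 20.1% in DMSO, and 10.7% to 12.9% in the 4 libraries with IL-4. Without site 11 the log2 ratio of the window in DMSO moved from 0.23 to 0.39. The contrast between site 11 and the rest was noticed after the values were seen. At Csf1r, site 36 was the 1 site past 1.5-fold downwards in DMSO (0.579-fold, 0.425 to 0.780), and without vehicle it was 0.849-fold (0.641 to 1.12).

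**Figure D5:**
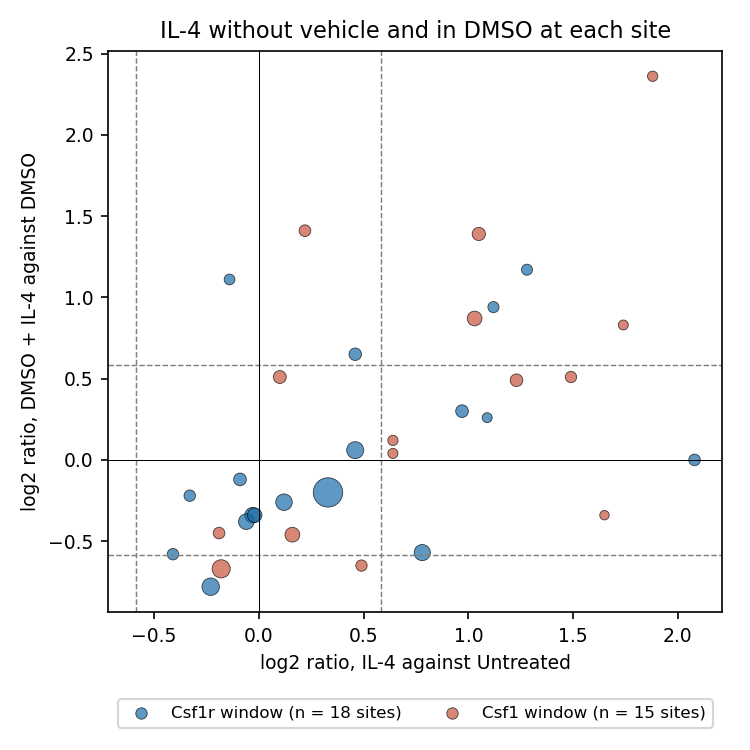
Log2 ratio of DMSO + IL-4 to DMSO against that of IL-4 to Untreated at the 18 Csf1r and 15 Csf1 sites compared, with point area set by mean normalized reads and dashed lines at 1.5-fold. The 2 Csf1r and 4 Csf1 sites past the fold in both lie in the upper right (8.73% of all compared sites). Of these Csf1 sites, 16 and 39 passed the filter only through the MCSF and latrunculin A libraries. The largest point of each window, sites 20 and 11, lies low, at −0.20 and −0.67 on the vertical axis.

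The vehicle itself went with a difference of the same size as MCSF at the receptor locus. DMSO against Untreated was 1.47-fold higher at Csf1r (1.37 to 1.58) and 1.28-fold at Csf1 (1.16 to 1.41), with 6 of 18 and 6 of 15 sites at least 1.5-fold higher and none lower, against 16.8% and 7.24% of all compared sites. Of the 6 Csf1 sites, 34, 39 and 40 passed the filter only through the MCSF and latrunculin A libraries. The count was not repeated with the filter on the other 4 libraries. Of all compared sites past the fold in this comparison 69.8% were higher, and 44.9% to 52.3% on the other scales. On each of those 3 scales 4 Csf1r and 3 Csf1 sites were higher, and 1 Csf1r site was lower. The share of all compared sites that were higher or lower was not computed on those scales. With at least 50 reads the counts were 3 of 11 and 2 of 6, against 16.9%. With the trend with read count removed the summed log2 ratios went from 0.56 to 0.28 at Csf1r and from 0.35 to 0.14 at Csf1. In the presence of IL-4 the vehicle differed less. DMSO + IL-4 against IL-4 was 1.05-fold at Csf1r (0.971 to 1.13) and 1.09-fold at Csf1 (0.987 to 1.21), with 2 sites higher and 1 lower at each locus, against 11.2% and 9.80%, and with at least 50 reads 1 of 11 and 1 of 6 were higher, against 5.89%. Setting MCSF + IL-4 against DMSO + IL-4, or LatA + IL-4 against IL-4, kept every summed ratio within its counting interval. The DMSO comparison shares its libraries with the IL-4 comparisons above, so the values of these are not independent.

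Peaks were called by the authors in each library separately, and over the whole genome numbered 269643 in Untreated, the most, and 222076 in LatA + IL-4, the fewest, with 228476 in MCSF + IL-4. The Csf1 window held 14 peaks in Untreated, 15 in DMSO, 17 in IL-4, 18 in DMSO + IL-4, 26 in MCSF + IL-4 and 29 in LatA + IL-4, covering 4.83, 5.20, 6.08, 6.09, 8.75 and 9.63 kb. The Csf1r window held 19, 22, 25, 29, 28 and 25 in the same order, covering 7.49, 8.80, 9.13, 8.96, 11.0 and 10.3 kb. At Csf1 both treated libraries thus had more peaks than any other library. At Csf1r MCSF + IL-4 had 3 more than IL-4 and LatA + IL-4 had 4 fewer than DMSO + IL-4, which had the most. With a −log10 q of at least 5 the Csf1r counts were 24 in IL-4, 23 in DMSO + IL-4, 22 with latrunculin A and 27, the highest, with MCSF.

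A peak in all 6 libraries was found at 15 of 41 Csf1r sites and at 11 of 40 Csf1 sites, and in 1 library alone at 6 and 12. The share of all sites in the whole table with such peaks was not computed, so these counts describe the members alone. The highest fold enrichment of a peak over its local background ranged from 12.4 to 20.4 at Csf1r and from 13.3 to 20.2 at Csf1. The strongest site of each window kept its peak in every library, while all of the single-library peaks were at sites with a mean below 20 reads. At 5 Csf1r sites and 3 Csf1 sites none of the 6 lists had a peak.

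The site whose pattern over the 6 libraries was most like that of Csf1r site 20 was site 29 (Pearson r = 0.94 on log2 normalized reads), followed by site 31 (r = 0.94), of 17 others compared. For Csf1 site 11 they were sites 22 (r = 0.87) and 31 (r = 0.81) of 14. These are descriptions over 6 points that share the same libraries and the same scaling, and sites of more reads have less counting error.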

How the data were processed

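The site table and 1 peak list per library were used. Per the study's methods, reads were trimmed with Cutadapt, aligned to mm9 with Bowtie2 (up to 10 alignments per read), freed of duplicates with Picard and of blacklisted and mitochondrial reads, and counted with featureCounts. MACS2 called peaks at a q-value of 0.05. Tool versions and the joining of sites are not given in the sources used here. Keeping several alignments adds reads at repeated sequence.

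The deposited table holds a signal for each site in each library, obtained by the authors by TMM scaling of reads in edgeR, and whole reads were recovered for 100% of values (tolerance 0.001 of a step). It counts from 1, since 98628 Untreated peaks start at a site start on that reading and 1122 on the other. Fold enrichment over local background, a ratio, and a −log10 q-value stand in the deposited peak lists, both used only to describe peaks. No per-sample column was left out (0).

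Normalized reads are reads over the effective library size implied by the table, times the geometric mean of those sizes. Ratios of sites have 1 read added, and ratios of window sums have none. The fold of 1.5 is that of the study's methods, and 20 normalized reads correspond to between 16.2 and 27.0 reads of a library. Intervals of 95% are exact (Clopper-Pearson for ratios) and cover counting error only, since reads carry no molecular identifiers.

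The rule for members uses position alone, but the loci and lists were proposed with earlier results of these data known. In each window the named sites are the 5 with most reads, the 3 largest rises and 3 largest falls with MCSF past the fold, and up to 3 past the fold the same way in both IL-4 comparisons or with both MCSF and latrunculin A. Others are named as chosen after their values were seen. No pathway list was placed, since the table names no genes. The alternatives were other scales between libraries (total reads in sites, DESeq2 size factors, reads outside sites of at least 1000 mean reads), removal of the trend with read count in 20 bins, other filters, folds and added reads, leaving out sites, and crossed controls. The comparison with sites of at least 50 reads over the whole table, its combination with trend removal, and the filter on the 4 libraries without MCSF or latrunculin A, alone and with the trend removed, were added after seeing the data. Scripts were tested on simulated data and used Python 3.11.15, numpy 2.4.6, pandas 2.3.3, scipy 1.17.1, matplotlib 3.10.9, R 4.3.3 and DESeq2 1.42.0.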

Additional observations from a re-analysis of the deposited data

Results flagged for a closer look

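Some weak members differed in opposite directions, each at least 1.5-fold, in comparisons without a common library. The sites described below are not all of them. Csf1r site 33 (−1.97 with MCSF, 2.18 with latrunculin A) is another. So is Csf1 site 30 (−0.62 for IL-4 without vehicle, 1.31 in DMSO). All lie below the filter of 20 normalized reads, were picked out after their values were seen, and the difference between the comparisons was not tested.

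Site 27 of the Csf1r window (chr18:61288677-61288966) was the widest apart. It held 3 reads in Untreated and 42 in DMSO, 35 in IL-4 and 3 in DMSO + IL-4, and 6 in MCSF + IL-4 and 16 in LatA + IL-4. Peaks were called there only in IL-4 (4.86-fold over background) and DMSO (5.87-fold). Its log2 ratio was 3.46 for IL-4 against Untreated and −3.04 for DMSO + IL-4 against DMSO. The same site had −2.14 with MCSF and 1.92 with latrunculin A.

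Site 4 of that window had a log2 ratio of 0.68 with MCSF and −1.99 with latrunculin A, and site 25 had −1.37 and 0.66.

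In the Csf1 window, site 23 (chr3:107564553-107565022) held 30 reads in Untreated and 11 in DMSO, 2 in IL-4 and 13 in DMSO + IL-4, and 2 in MCSF + IL-4 and 2 in LatA + IL-4, at −2.97 for IL-4 without vehicle and 0.65 in DMSO. Site 10 had 0.81 for IL-4 without vehicle and −1.07 in DMSO, and site 17 had −0.69 with MCSF and 0.66 with latrunculin A.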

How the results depend on the processing

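No paired analysis was possible because each group has 1 library, and no library could be left out. Depth limits the sites: 18 of 41 and 15 of 40 members could be compared, and replicate variation could not be measured. The scale between libraries moved the median log2 ratio of all compared sites from 0.16 to between −0.05 and 0.09 for MCSF, from 0.20 to between −0.01 and 0.17 for latrunculin A, from 0.10 to between −0.02 and 0.07 for IL-4 and from 0.18 to between 0.03 and 0.07 for DMSO against Untreated, and the cause was not tested. No window sum and no ratio at a named site that was past the fold changed sign. Of the alternative window sums 55 stayed within the counting interval and 21 did not, and of the ratios at named sites 382 did and 18 did not, all 18 under removal of the trend with read count.

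Window sums are given as log2 ratios, Csf1r first. With DESeq2 size factors they were 0.39 and 0.69 for MCSF, 0.73 and 0.64 for latrunculin A, 0.41 and 0.20 for DMSO against Untreated, and 0.25 at Csf1r for IL-4 against Untreated. With reads outside the largest sites they were 0.33 and 0.62 for MCSF, 0.73 and 0.64 for latrunculin A and 0.45 at Csf1r for DMSO against Untreated, which was 0.43 with total reads. With the trend removed they were 0.14 and 0.57 for MCSF, 0.54 and 0.56 for latrunculin A, 0.28 and 0.14 for DMSO against Untreated, and 0.26 at Csf1r for IL-4 against Untreated. Under that correction the strongest site of each window had −0.18 (site 20) and −0.06 (site 11) with MCSF, site 31 of Csf1r had −0.46 and site 9 had −0.52. Without site 11 the Csf1 sum for DMSO + IL-4 against DMSO was 0.39.

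Site counts at Csf1r were 5 higher with MCSF and 6 with latrunculin A with the trend removed, where DMSO + IL-4 against DMSO had 2 lower, DMSO against Untreated had 2 higher and 1 lower at Csf1r and 1 lower at Csf1, and DMSO + IL-4 against IL-4 had 1 higher at each. On each of the 3 other scales DMSO against Untreated had 1 lower at Csf1r and 3 higher at Csf1, and DMSO + IL-4 against IL-4 had 1 higher at each, as it did with 5 reads added. DMSO + IL-4 against DMSO had 1 lower at Csf1 with total reads or with 5 reads added, and 3 lower at Csf1r with reads outside the largest sites. Shares of all compared sites were not computed on the other scales or with 5 reads added. With the trend removed they were computed for MCSF and latrunculin A only.

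With the filter set on the 4 libraries without MCSF or latrunculin A, added after seeing the data, 7 of 11 Csf1 sites were higher with MCSF, 5 for IL-4 against Untreated and 3 for DMSO + IL-4 against DMSO, fewer sites being compared. A fold of at least 2 left 4 and 5 higher with MCSF, 7 and 6 with latrunculin A, 2 and 2 for DMSO against Untreated, 2 and 3 for DMSO + IL-4 against DMSO with 0 lower, and 0 in either direction for DMSO + IL-4 against IL-4. At least 50 reads left 5 and 4 higher with MCSF, 3 at Csf1 with latrunculin A, 2 and 3 for IL-4 against Untreated, 3 and 2 for DMSO against Untreated, 1 and 2 for DMSO + IL-4 against DMSO with 1 lower at Csf1, and 1 and 1 for DMSO + IL-4 against IL-4 with 0 lower. With no filter, 19 and 24 were higher and 5 and 5 lower with MCSF, and 27 and 25 higher against 2 and 3 lower with LatA. For IL-4 against Untreated 17 and 18 were higher and 4 and 5 lower. For DMSO + IL-4 against DMSO 14 and 14 were higher and 6 and 5 lower. For DMSO against Untreated 14 and 10 were higher and 3 and 5 lower. For DMSO + IL-4 against IL-4 10 and 8 were higher and 9 and 6 lower. The share of all sites past the fold was not computed with no filter or for a fold of at least 2. The counts at those settings therefore describe the members alone.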
